A study of Mus musculus with 4 samples.

Results

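Oligodendrocytes are described here from nuclei of the mouse mediobasal hypothalamus, whose polyadenylated RNA was counted by droplet-based 3′ sequencing of single nuclei. The nuclei are the ones that the authors' deposited annotation calls Oligo and whose barcode was found in the count matrix, 2921 of 36523 annotated nuclei. All mice were wild type and had free access to chow, and they received insulin or saline before the hypothalamus was dissected and the nuclei were sorted clean by flow cytometry. The labels give neither dose, route, time, age nor the number of mice in a library, so p-values take libraries and not mice as replicates. There were 2 Insulin libraries, with 795 oligodendrocyte nuclei in run 230 and 641 in run 232, and 2 Saline libraries, with 732 in run 230 and 753 in run 232. The runs are named by the run column of the deposited table, and each held 1 library of each treatment. What else the libraries of a run shared is not given.

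Oligodendrocytes wrap axons in myelin, a stack of membrane rich in cholesterol and galactolipids that is held together by proteins such as MBP. They arise from oligodendrocyte precursor cells (OPC) through a short newly formed stage, and the transcription factors SOX10 and MYRF switch on the myelin genes. Mature oligodendrocytes also pass lactate to axons, take up potassium and store iron. They carry insulin and IGF-1 receptors, and IGF-1 is known to promote their survival and myelination.

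The label was checked first. Every one of the 2921 nuclei held at least 1 UMI (unique molecular identifier, 1 counted transcript) of Mobp, Mog, Mag, Mbp or Opalin, and together these 5 genes made up 7876 and 7863 UMIs per 1e6 UMIs (CPM) in the Insulin libraries of runs 230 and 232, against 7477 and 7864 CPM in the Saline libraries of runs 230 and 232. The same sum averaged 383 CPM in OPC, 188 CPM in astrocytes and 60.1 CPM in neurons. Of the other marker lists, OPC genes summed to 118 CPM in oligodendrocytes against 8240 CPM in OPC, microglial genes to 68.5 CPM against 3301 CPM in microglia, and endothelial genes to 8.37 CPM. Astrocyte genes summed to 300 CPM in oligodendrocytes, against 6380 CPM in astrocytes. Neuron genes summed to 1034 and 1752 CPM in the Insulin libraries, against 1111 and 1570 CPM in the Saline libraries. In neurons they averaged 22676 CPM. The 10 listed neuropeptide genes averaged 754 CPM in oligodendrocytes, above their 469 CPM in neurons. Of the annotated reference types, the one called Endothelial carried tanycyte genes (ependymal and tanycyte list at 2839 CPM, endothelial list at 290 CPM), and the one called Mural Cell carried most endothelial transcripts (4283 CPM). They are given below by their annotated names.

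**Figure D1:**
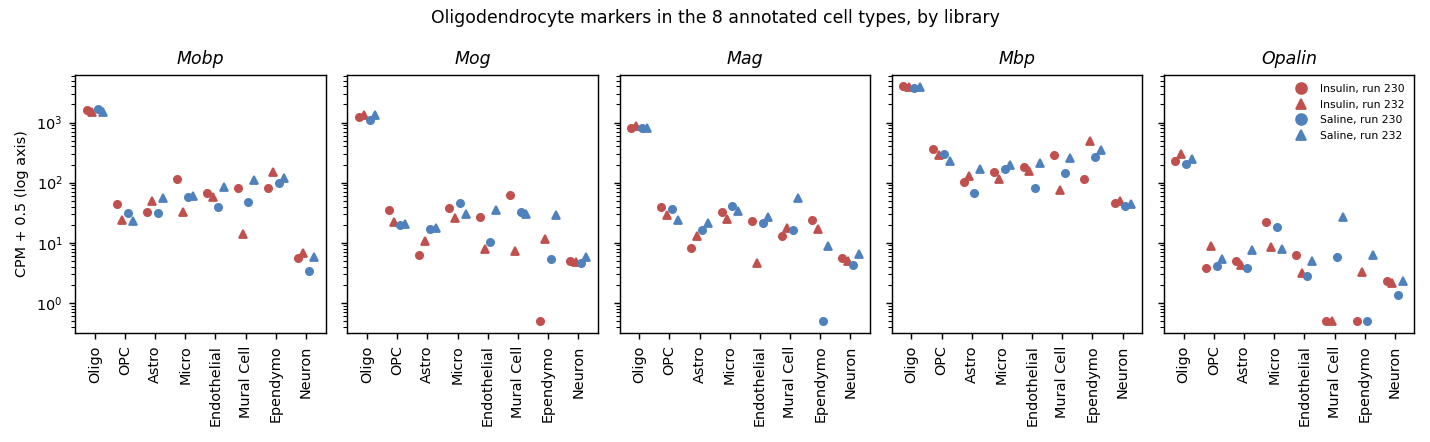
CPM plus 0.5 on a log axis for the 5 oligodendrocyte markers in each annotated cell type, 1 point per library (red Insulin, blue Saline, circles run 230, triangles run 232). All 4 oligodendrocyte points lie above every point of the other types for each gene, with Mobp between 1481 and 1661 CPM and Opalin between 206 and 298 CPM.

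The marker genes sit on different chromosomes, and 4 stretches of their promoters are shown because all 4 genes were high in the nuclei annotated Oligo. Each runs from 250 to 51 bases before the outermost annotated start, 5′ to 3′ on the strand of the gene, from RefSeq on GRCm38.p6. Mobp lies at chr9:120149492-120149691 (plus strand), Mag at chr7:30914973-30915172 (minus strand), Mog at chr17:37023449-37023648 (minus strand) and Opalin at chr19:41077164-41077363 (minus strand). Capitals mark the SOX core letters ACAAAG or ACAATG and the letters CTGGNAC of the MYRF motif, searched on both strands.
Mobp: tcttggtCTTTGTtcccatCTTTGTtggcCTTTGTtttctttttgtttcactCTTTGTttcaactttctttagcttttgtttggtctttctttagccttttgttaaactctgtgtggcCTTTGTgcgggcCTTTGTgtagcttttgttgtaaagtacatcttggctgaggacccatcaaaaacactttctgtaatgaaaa
Mag: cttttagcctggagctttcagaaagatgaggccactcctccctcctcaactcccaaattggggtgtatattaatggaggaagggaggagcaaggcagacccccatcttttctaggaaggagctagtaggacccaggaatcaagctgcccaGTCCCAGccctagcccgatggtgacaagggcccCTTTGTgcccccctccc
Mog: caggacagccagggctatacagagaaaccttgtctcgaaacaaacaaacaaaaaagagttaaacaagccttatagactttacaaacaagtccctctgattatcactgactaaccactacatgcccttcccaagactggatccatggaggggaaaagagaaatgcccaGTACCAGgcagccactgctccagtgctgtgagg
Opalin: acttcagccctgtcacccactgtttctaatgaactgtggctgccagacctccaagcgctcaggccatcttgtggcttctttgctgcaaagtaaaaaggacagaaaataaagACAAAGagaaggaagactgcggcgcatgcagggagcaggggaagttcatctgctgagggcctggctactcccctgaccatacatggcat
Mobp held 6 matches of the SOX core in this window, Mag and Opalin 1 each and Mog 0. Mag and Mog held 1 match each of the MYRF letters, Mobp and Opalin 0, and no base belonged to both motifs. Over all 32851 mouse promoter windows of this length, 21.2% held the SOX core and 13.2% the MYRF letters. Of the 20 genes most restricted to oligodendrocytes (below), 13 had a listed promoter, 4 held the SOX core and 7 the MYRF letters in any of their 17 windows, a count per gene that is not of the same unit as the share per window. A match is a run of letters and not a measured binding site.

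Levels were compared between annotated types as a description without a test, since the types were themselves made from these counts. CPM scales a gene to all UMIs of the same nuclei, is not corrected for gene length, and is therefore compared for 1 gene across types. Among 13611 genes with a mean of at least 5 CPM over the 8 types, 625 (4.59%) were higher in all 4 oligodendrocyte libraries than in any library of another type, and 460 (3.38%) were lower than in any. The median log2 ratio of oligodendrocytes to the mean of the other types was -0.35 over these genes.

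Myelin protein genes had the largest median ratio of the 20 lists. All 18 listed genes passed the 5 CPM filter, 15 lay above every library of every other type, and their median log2 ratio to the mean of the other types was 4.19. Mbp, the myelin basic protein that compacts the inner membrane faces, was at 4009 and 3866 CPM in the Insulin libraries, against 3690 and 3969 CPM in the Saline libraries. Its mean of 3883 ± 142 CPM (SD, n = 4 libraries) compares with 307 ± 160 CPM in the next type, Ependymo. Mog, a protein of the outer myelin surface, averaged 1258 ± 108 CPM, 36.4 times the level in microglia. Mag, an adhesion protein on the axon side of myelin, averaged 819 ± 32.8 CPM, 25.2 times the microglial level. No library of another type reached the lowest oligodendrocyte library for any of these 3 genes. Gpm6b, a membrane glycoprotein gene that is also used in astrocytes, was at 1202 ± 45.5 CPM against 708 ± 13.7 CPM in the Endothelial type.

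The 20 genes with the largest ratio to the next type, among those with at least 50 CPM, held other kinds of genes besides myelin. Fbxw15, an F-box gene, led the order with 393 and 232 CPM in the Insulin libraries, against 532 and 318 CPM in the Saline libraries, 56.0 times the mean of the next type. Both libraries of run 230 exceeded the library of run 232 of the same treatment. The noncoding transcript C030029H02Rik followed, at 564 ± 44.7 CPM and 52.9 times the next type. Hapln2, a link protein of the matrix at nodes of Ranvier, averaged 557 ± 102 CPM (33.7 times). Prr5l, a gene whose product binds the mTORC2 kinase complex, averaged 2177 ± 318 CPM (27.7 times), and Anln, an actin-binding protein, 367 ± 5.83 CPM (27.4 times). The others were Galnt5, Mog, Plekhh1, Tnni1, Cyp2j12, D7Ertd443e and 9 predicted or unnamed transcripts, with ratios of 26.9 to 52.8. Gm13905 lies opposite Prr5l and Gm42756 opposite Fbxw15, and whether the counting used strand is not given in the sources used here, so these pairs are uncertain. The same holds for Galnt5, opposite the myelin gene Ermn, for Plekhh1, opposite Pigh, for Gm48370 and Gm48371, opposite each other, and for other genes named below that share bases with a gene of the other strand, such as Junb, Thra and Rasa1. At the other end, Arhgap45 had 0 UMIs in oligodendrocyte nuclei against 541 CPM in microglia. Of the 10 genes with the lowest ratio to the mean of the other types, among genes at 50 CPM or more in that mean, the other 9 had 1 to 12 UMIs over the 4 libraries. They included the vessel genes Flt1, Slco1a4, Abcb1a, Adgrl4 and Mecom, the microglial Siglech and the cilium genes Ccdc180, Cfap221 and Dnaaf3.

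Transcription factors of the lineage did not all share this pattern. Of 14 listed, all passed the filter and 5 were above every library of the other types. St18 averaged 2615 ± 81.6 CPM, 10.6 times the OPC level, and Zfp536 1950 ± 161 CPM, 9.89 times the OPC level. Myrf, the factor that maintains myelin gene expression, averaged 193 ± 10.97 CPM in oligodendrocytes, against 20.8 ± 2.48 CPM in OPC. Sox10, which acts throughout the lineage, was at 224 ± 16.6 CPM in oligodendrocytes, against 316 ± 25.4 CPM in OPC. Olig2 was at 54.9 ± 19.0 CPM, against 154 ± 45.7 CPM in OPC. Olig1 was at 181 ± 54.7 CPM, against 249 ± 61.3 CPM in OPC.

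Lipid genes divided by pathway. Of the 10 sphingolipid genes, 6 were above every library of the other types and Sgms1, a sphingomyelin synthase, was below every one (83.4 ± 11.9 CPM, against 1214 ± 137 CPM in Mural Cell). Fa2h, which hydroxylates the fatty acids of galactolipids, averaged 523 ± 52.8 CPM, and Ugt8a, which makes galactosylceramide, 387 ± 59.3 CPM. Aspa, which frees acetate from N-acetylaspartate for lipid synthesis, averaged 747 ± 49.5 CPM, 21.8 times the next type. Cholesterol and fatty acid synthesis genes were not set apart in the same way: 2 of the 24 members past the filter lay above every other library, and the median log2 ratio was 0.17. Acaca, acetyl-CoA carboxylase, was 1 of these at 725 ± 93.7 CPM, against 342 ± 58.2 CPM in astrocytes. Scd2, a fatty acid desaturase, was at 564 ± 94.4 CPM, against 515 ± 87.9 CPM in astrocytes, which overlap.

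Channels and support genes divided likewise. Kcna1, a voltage-gated potassium channel subunit, averaged 763 ± 141 CPM, 15.1 times the OPC level, and Slc12a2, the sodium-potassium-chloride cotransporter, 528 ± 68.7 CPM, 2.54 times the level in Mural Cell. Gjc3, a connexin gene, was at 802 ± 105 CPM, against 578 ± 157 CPM in OPC. None of the 15 genes of glycolysis and lactate transport past the filter was highest in oligodendrocytes. Over all 13611 genes past the filter 1356 were, so few would be looked for among 15. Slc2a1, the glucose transporter of the blood-brain barrier, was at 39.99 ± 6.05 CPM, against 1127 ± 210 CPM in Mural Cell. Slc16a1, the lactate transporter by which oligodendrocytes are known to feed axons, was at 19.5 ± 0.708 CPM, against 42.2 ± 24.8 CPM in Mural Cell. Fth1, the ferritin heavy chain, was at 716 ± 141 CPM, against 681 ± 215 CPM in Mural Cell. Trf, the transferrin gene, had only 4 UMIs over the 4 libraries. Its annotated span is shared with another gene on the same strand (Gm20425), so this value is uncertain.

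Receptor genes lay on both sides of the other types. Of 16 receptors of growth and trophic factors, 15 passed the filter, 4 were above every other library (Fgfr2, Gpr37, Erbb3 and S1pr5) and 2 below (Ntrk2 and Lrp1). Fgfr2 averaged 2465 ± 400 CPM, against 1139 ± 219 CPM in astrocytes. Its annotated span (chr7:130162451-133123350, GRCm38) holds many other genes on both strands, so this level is uncertain. Gpr37, a G protein-coupled receptor, averaged 129 ± 9.01 CPM, against 31.0 ± 4.55 CPM in astrocytes. Among 14 hormone receptors past the filter, Adipor2, an adiponectin receptor, averaged 1128 ± 52.3 CPM, 4.19 times the level in Ependymo, and Thra, a thyroid hormone receptor, 289 ± 18.4 CPM, 1.36 times the astrocyte level. Thrb, the other thyroid hormone receptor gene, was below every other library at 36.8 ± 7.02 CPM, against 421 ± 49.6 CPM in astrocytes, as were Ghr, the growth hormone receptor, and Nr3c2, the mineralocorticoid receptor. Of 33 insulin signalling genes past the filter, 2 were above every other library, Grb14 and Phlpp1. Phlpp1, a phosphatase that inactivates AKT, averaged 2206 ± 186 CPM, against 701 ± 47.2 CPM in the Endothelial type. Grb14, an adaptor that restrains the insulin receptor, was at 420 and 381 CPM in the Insulin libraries, against 360.0 and 350.2 CPM in the Saline libraries. Gsk3b, a kinase that AKT inhibits, was among the 3 below every other library. The median log2 ratio of the 33 genes was -0.17.

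**Figure D2:**
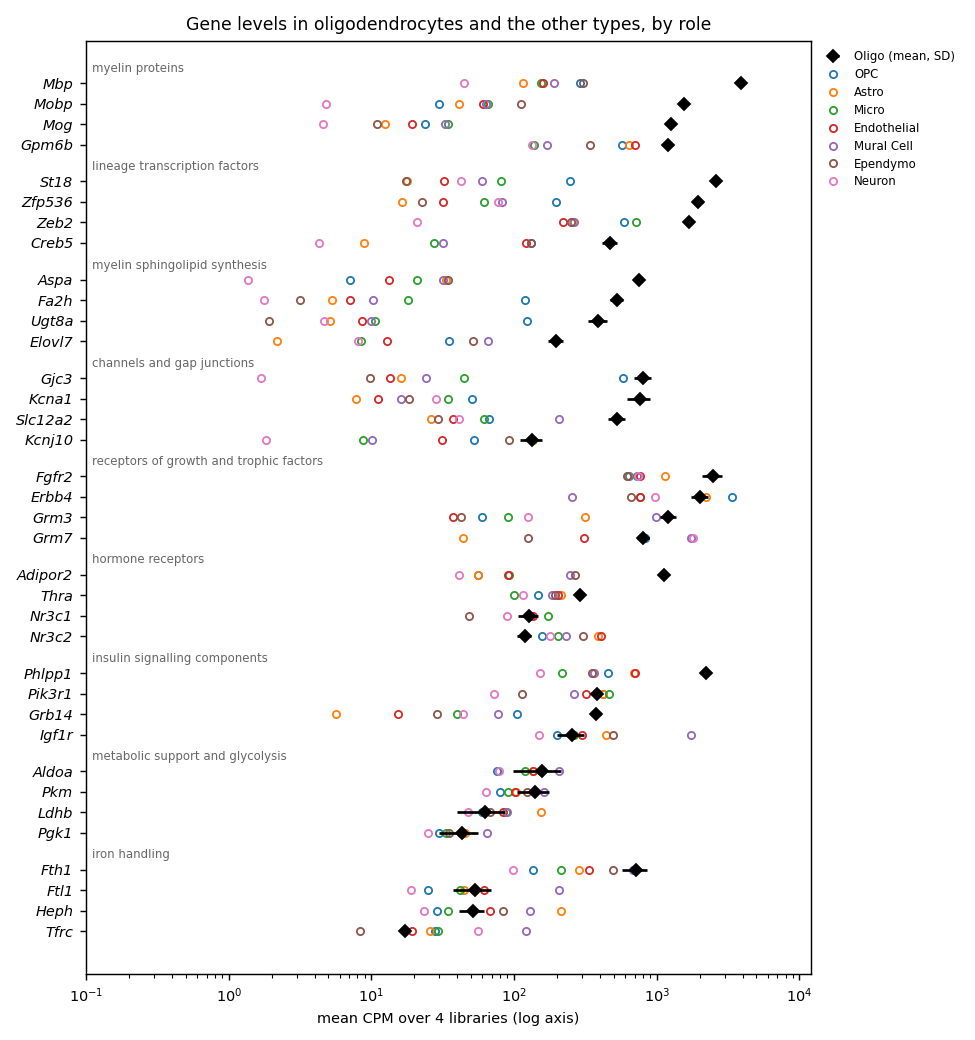
Mean CPM over 4 libraries, on a log axis, of 4 abundant members of each of 9 gene lists, with oligodendrocytes as black diamonds (bar, SD) and each other type as an open circle. The diamonds stand to the right of all circles for myelin proteins, lineage factors and sphingolipid genes, with Mbp at 3883 CPM and Aspa at 747 CPM, and among the circles for the metabolic genes.

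Stage and state differences within the annotated type were then read from single nuclei, again as a description. Each nucleus was thinned to 1000 UMIs, which left 2881 nuclei and 40 out. Genes of the newly formed stage differed in detection and level. Tcf7l2 was detected in 6.35% and 7.62% of thinned nuclei of the Insulin libraries, against 6.01% and 8.95% in the Saline libraries, and Bcas1 averaged 765 CPM in oligodendrocytes, against 754 CPM in OPC. Enpp6, a phosphodiesterase of newly formed oligodendrocytes, was detected in 4.07% and 2.22% of thinned nuclei of the Insulin libraries, against 3.92% and 2.67% in the Saline libraries. Before thinning it was detected in 7.26% of oligodendrocyte nuclei, 5.48% of OPC nuclei and 1.35% of neurons, whose median depths were 2354, 4928.5 and 8445 UMIs. Neu4, a sialidase, was detected in 0.582% of oligodendrocyte nuclei, at the share in neurons (0.529%), and in 77.4% of OPC nuclei. Gpr17, a receptor of committed precursors, was detected in 1.44% of oligodendrocyte nuclei and in 41.9% of OPC nuclei. The early genes Neu4 and Gpr17 were thus found mainly in nuclei annotated OPC, and Enpp6 in both types.

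Among genes with a mean of at least 0.05 UMIs per thinned nucleus, the one with the widest spread between nuclei, apart from Malat1 and Frmd4a, was the noncoding transcript 9630013A20Rik, which lies opposite Pcdh17 on chromosome 14 (84458639 to 84476424, minus strand, GRCm38). The ratio of its variance to its mean over thinned nuclei was 4.90 (median of the 4 libraries). It had 0 UMIs in 2760 nuclei and reached 293 in 1 nucleus. The 45 nuclei with 2 or more UMIs numbered 15 and 4 in the Insulin libraries, against 17 and 9 in the Saline libraries, and 116 nuclei with 1 UMI lie between. Summed over these 45 nuclei, several genes of the newly formed list stood above the 2760 nuclei without the transcript. Other types also carry these genes: 9630013A20Rik averaged 175 CPM in all oligodendrocytes against 354 CPM in OPC, Tnr 71.8 CPM against 3975 CPM in OPC, and Frmd4a 334 CPM against 1743 CPM in OPC and 1725 CPM in neurons. Tnr, the matrix protein tenascin-R, was at 1984 and 0 CPM in the Insulin libraries and 569 and 2819 CPM in the Saline libraries, against 16.6 to 22.6 CPM in nuclei without the transcript. Tcf7l2, a factor of the newly formed stage, was at 817 and 110 CPM in the Insulin libraries and 770 and 1534 CPM in the Saline libraries, against 64.3 to 96.7 CPM. Frmd4a averaged 5237 ± 4682 CPM against 142 ± 5.53 CPM, Enpp6 237 ± 210.3 CPM against 42.4 ± 9.99 CPM and Rras2, a small GTPase, 143 ± 54.99 CPM against 5.49 ± 3.65 CPM (SD, n = 4 libraries). The Insulin library of run 232 contributed only 4 nuclei and stayed low for Tnr, Frmd4a and Enpp6.

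Genes of the mature state were at lower levels in the same 45 nuclei. Anln was at 71.96 ± 26.98 CPM, against 385 ± 1.67 CPM in nuclei without the transcript, Apod, a lipid-binding protein, at 155 ± 59.5 CPM against 641 ± 58.2 CPM, and Hapln2 at 111 ± 112 CPM against 583 ± 106 CPM. Their ranges over the 4 libraries did not overlap, nor did those of the mature state genes Il33 and Car2. Those of Ptgds did overlap, at 714 to 1838 CPM against 1220 to 3203 CPM. The share of all genes without overlap was not computed, and the Insulin library of run 232 held only 4 of the 45 nuclei. Myelin protein genes lay on both sides. Mal, a membrane protein of myelin, was at 284 ± 119.9 CPM against 560.5 ± 139 CPM. Mbp was at 6262 ± 1241 CPM against 3781 ± 189 CPM, Mog at 1214 ± 353 CPM against 1263 ± 123 CPM and Opalin at 488 ± 234 CPM against 237 ± 37.9 CPM. Pdgfra, the growth factor receptor that defines OPC, had 2 UMIs in the 45 nuclei (6.44 ± 7.56 CPM against 5.61 ± 2.97 CPM). Vcan, another OPC gene, had 9 UMIs (25.7 ± 29.9 CPM against 4.38 ± 1.40 CPM). The neuron gene Syt1 averaged 216 ± 298 CPM against 96.3 ± 20.7 CPM and Meg3 359.7 ± 288 CPM against 473 ± 104 CPM. They were at 661 and 790.4 CPM in the 9 nuclei of the Saline library of run 232, which also had the highest Tnr and Tcf7l2, against 106 and 499 CPM in its nuclei without the transcript. The 45 nuclei had a median of 4650 UMIs, against 2326.5 in nuclei without the transcript. Doublets called by the authors had been set apart, and the part of depth or of remaining doublets in these levels was not tested.

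A second axis was set by Ptgds, the prostaglandin D synthase gene of mature oligodendrocytes. Thinned nuclei held 0 to 17 UMIs of Ptgds. Those with 5 or more numbered 540 and those with 0 numbered 647, with 1694 between, so these are the ends of a range and not types. Enpp6 had 1 UMI in the 540 nuclei, against 76 UMIs in the 647 (2.19 ± 4.39 CPM against 122 ± 40.6 CPM). Klk6, a protease of another mature state, had 0 UMIs, against 12. Anln was at 239 ± 31.5 CPM against 551 ± 46.6 CPM, and Apod at 491 ± 83.3 CPM against 904 ± 128 CPM, with no overlap between libraries. The Saline library of run 230 held only 19 of the 540 nuclei, and the share of all genes without overlap was not computed. Il33, an alarmin stored in oligodendrocyte nuclei, was at 511 ± 136 CPM against 277 ± 56.4 CPM, and Kcna1 at 919 ± 41.3 CPM against 586 ± 157 CPM. Mog (1329 ± 103 CPM against 1312 ± 193 CPM) and Mbp (3837 ± 414 CPM against 4001 ± 317 CPM) lay within the spread of libraries. The share of nuclei with 5 or more UMIs was 14.5% and 28.4% in the Insulin libraries, against 2.66% and 30.4% in the Saline libraries, and both libraries of run 230 were below those of run 232. Ptgds itself was at 2131 and 3103 CPM in the Insulin libraries, against 1200 and 3119 CPM in the Saline libraries. It reached 462 ± 535 CPM in Mural Cell and 22.6 CPM in neurons.

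**Figure D3:**
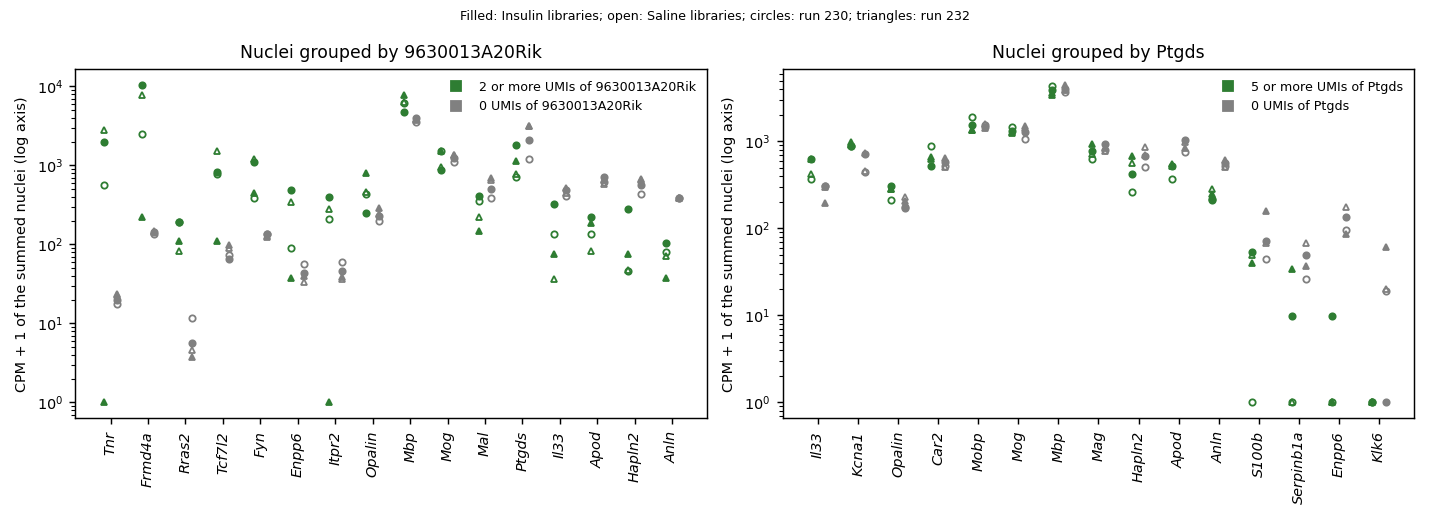
CPM plus 1, on a log axis, of selected genes in oligodendrocyte nuclei summed by library, left for nuclei with 2 or more UMIs of 9630013A20Rik (green, 45 nuclei) and with 0 (grey, 2760 nuclei), right for thinned nuclei with 5 or more UMIs of Ptgds (green, 540) and with 0 (grey, 647). In the left panel Tnr and Frmd4a reach 2819 and 10372 CPM in green, except in the Insulin library of run 232, and all green points of Apod, Hapln2 and Anln lie below the grey ones.

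The question of the treatment was which oligodendrocyte genes differed after insulin. UMIs were summed per library and fitted with the run as a block, since libraries of 1 run deviated together (below). This left 1 residual degree of freedom, so the edgeR p-values rest largely on a spread pooled over genes. Of 11476 genes tested with edgeR's quasi-likelihood test, 0 (0%) passed an adjusted p of 0.05, and the smallest adjusted p was 0.989. At an unadjusted p under 0.05 there were 273 genes higher in Insulin (2.38%) and 279 lower (2.43%). DESeq2 and limma-voom with the run as block also called 0 genes, with 35 and 584 genes at an unadjusted p under 0.05. Without a filter on low counts 9 of 20286 genes were called, and without the 16 nuclei whose markers of another type exceeded their own 7 of 11366 were called. The 6 genes called under both settings were Polr3e and Cfap77, fitted as higher in Insulin, and Gm26936, 4930445B16Rik, Gm49003 and Gm32036, fitted as lower. Cfap77 was at 91.2 and 3.30 CPM in the Insulin libraries of runs 230 and 232, against 24.4 and 4.33 CPM in the Saline libraries. It was thus higher in Insulin in run 230 and lower in run 232. Fits that leave out 1 library have no block and called 7 genes without Insulin run 230, 4 without Insulin run 232, 6 without Saline run 230 and 336 without Saline run 232.

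No myelin or lineage gene passed the test. Mbp averaged 3937 ± 101 CPM in Insulin and 3829 ± 197 CPM in Saline (SD, n = 2 each), a log2 difference of 0.04 with SE 0.16. Mog was at 1234 and 1326 CPM in the Insulin libraries, against 1116 and 1357 CPM in the Saline libraries, which overlap. For the 5 markers together the Insulin libraries averaged 7870 ± 9.19 CPM and the Saline libraries 7670 ± 274 CPM (exact permutation test, two-sided p = 0.667; 2 against 2 libraries cannot give less than 0.333). Of the 18 myelin protein genes tested, 6 were higher in Insulin in both runs and 1 lower, where 25.7% of all genes were higher and 25% lower in both runs. Pmp22 alone had an unadjusted p under 0.05, at 53.2 and 61.4 CPM in the Insulin libraries, against 31.8 and 44.3 CPM in the Saline libraries (log2 0.60, SE 0.22, edgeR adjusted p = 0.993). Among lineage factors Olig1 was at 186 and 240.1 CPM in the Insulin libraries, against 108 and 190.0 CPM in the Saline libraries (log2 0.56, SE 0.17, edgeR adjusted p = 0.993). Olig2 was at 54.2 and 80.5 CPM, against 34.6 and 50.5 CPM (log2 0.66, SE 0.21, edgeR adjusted p = 0.993). Tcf7l2 was at 87.9 and 95.7 CPM in Insulin, against 107 and 147 CPM in Saline (log2 -0.45, SE 0.17, edgeR adjusted p = 0.993).

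Of the 10 genes with the smallest p on the higher side, by a rule on UMIs and agreement of the runs, 9 are named here, Polr3e, Slc15a2, H3f3b, Gadd45a, Tbcc, Paxx, Pdxk, Slc2a13 and Dbi. Polr3e, a subunit of RNA polymerase III, was at 219 and 355 CPM in the Insulin libraries of runs 230 and 232, against 117 and 237 CPM in the Saline libraries (log2 0.74, SE 0.16, edgeR adjusted p = 0.989). Within each run Insulin was above Saline, but the groups overlap because run 232 was higher in both. Slc15a2, a peptide transporter, was at 155 and 73.9 CPM, against 79.9 and 49.1 CPM (log2 0.79, SE 0.19, edgeR adjusted p = 0.989). Gadd45a, a stress-induced gene and FoxO target, had 19 and 15 UMIs in the Insulin libraries, against 1 and 6 UMIs in the Saline libraries. For 7 of these 9 genes the lowest level of the 4 libraries was in the Saline library of run 230, and for Slc15a2 and Pdxk it was in that of run 232.

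On the lower side the 10 genes were Meis2, Slc16a4, Filip1l, Akr1b3, Mrgpra6, Bfsp2, Fam196a, Zbed4, Rasa1 and Mrgpra1. Meis2, a homeobox factor, was at 26.6 and 17.8 CPM in the Insulin libraries, against 51.03 and 39.9 CPM in the Saline libraries (log2 -1.04, SE 0.24, edgeR adjusted p = 0.989). Akr1b3, aldose reductase, was at 128 and 93.7 CPM, against 211 and 130.3 CPM, and Rasa1, a Ras GTPase-activating protein, at 116 and 85.8 CPM, against 186 and 119 CPM. All 10 had their highest level in the Saline library of run 230.

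No gene of acute signalling passed the test. Of 31 immediate early genes 10 were tested, and 6 were higher in Insulin in both runs and 0 lower. Over all genes tested, 25.7% were higher and 25% lower in both runs. The median log2 difference of the 10 was 0.56, against 0.01 over all genes tested. Junb, an AP-1 factor, had 24 and 25 UMIs in the Insulin libraries, against 6 and 17 in the Saline libraries (log2 1.29, SE 0.43, edgeR adjusted p = 0.993), and Dusp1, a MAP kinase phosphatase, 24 and 29 UMIs, against 10 and 21. The summed level of the list was 218 and 308 CPM in the Insulin libraries, against 137 and 275 CPM in the Saline libraries (exact permutation test without pairing by run, two-sided p = 0.667). Insulin was above Saline within both runs. The difference of the means was 56.9 CPM. It was -12.0 CPM when Saline run 232 alone stood against both Insulin libraries, that is, without the Saline library of run 230. The summed level of 10 neuropeptide genes, which hypothalamic neurons make, was also lowest in that library, at 727 and 724 CPM in oligodendrocyte nuclei of the Insulin libraries, against 440 and 1126 CPM in those of the Saline libraries, and its part in these differences was not tested. Of 15 glucocorticoid-responsive genes, 8 were higher in both runs and 3 lower (25.7% and 25% over all genes tested), with a median of 0.18. Nfkbia, the inhibitor of NF-kappaB, was at 105.5 and 104.9 CPM in the Insulin libraries, against 61.8 and 78.4 CPM in the Saline libraries. Cdkn1a, the cell cycle inhibitor p21, was at 63.7 and 49.5 CPM, against 27.2 and 39.4 CPM (edgeR adjusted p = 0.993 for each gene). Mt1, Ddit4 and Arrdc2 also had an unadjusted p under 0.05, as did 2.38% of all genes tested on the higher side. Of the mature state genes Serpinb1a (log2 0.63, SE 0.28) and Ptgds (log2 0.41, SE 0.18) had one too, at an edgeR adjusted p of 0.993 each. Ptgds was at -0.21 in the fit without the Saline library of run 230, which has no run block.

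No insulin signalling gene passed either: of 33 tested, 5 were higher in both runs and 13 lower, with a median log2 difference of -0.09. Over all genes tested the shares were 25.7% and 25%. Insr, the insulin receptor, was at 189 and 161 CPM in the Insulin libraries, against 232 and 163 CPM in the Saline libraries (log2 -0.16, SE 0.16, edgeR adjusted p = 0.993). Rptor, a subunit of mTORC1, was the only one with an unadjusted p under 0.05 (97.9 and 103 CPM, against 161 and 114 CPM). Of 10 sphingolipid genes 2 were higher in both runs and 7 lower, with a median of -0.17, and none had an unadjusted p under 0.05. Ugt8a was at 382 and 327 CPM in the Insulin libraries, against 468 and 371 CPM in the Saline libraries. Of 23 cholesterol and fatty acid genes 8 were higher in both runs and 3 lower, with a median of -0.02. The exceptions at an unadjusted p under 0.05 were Fasn, fatty acid synthase, at 22.3 and 22.4 CPM, against 8.50 and 16.8 CPM, Idi1 at 21.4 and 23.7 CPM, against 12.5 and 15.9 CPM, and Insig1 at 67.0 and 61.4 CPM, against 44.2 and 50.5 CPM. None passed the adjustment.

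The other lists had medians between -0.19 (newly formed genes, 0 of 11 higher in both runs and 5 lower) and 0.38 (reactive oligodendrocyte genes, 6 of 8 higher and 1 lower). Over all genes tested, 25.7% were higher and 25% lower in both runs. FoxO targets gave 7 of 15 higher and 2 lower, iron handling 3 of 6 and 1, axon contact 2 of 15 and 8, receptors of growth factors 1 of 15 and 5, and hormone receptors 1 of 11 and 4. Clock genes (2 of 13 higher and 3 lower), heat shock and unfolded protein genes (4 of 17 and 1), channels (3 of 12 and 2), cytoskeleton (3 of 14 and 6), glycolysis (4 of 14 and 3), lineage factors (5 of 13 and 2) and mature state genes (5 of 13 and 2) lay on either side of the shares over all genes.

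**Figure D4:**
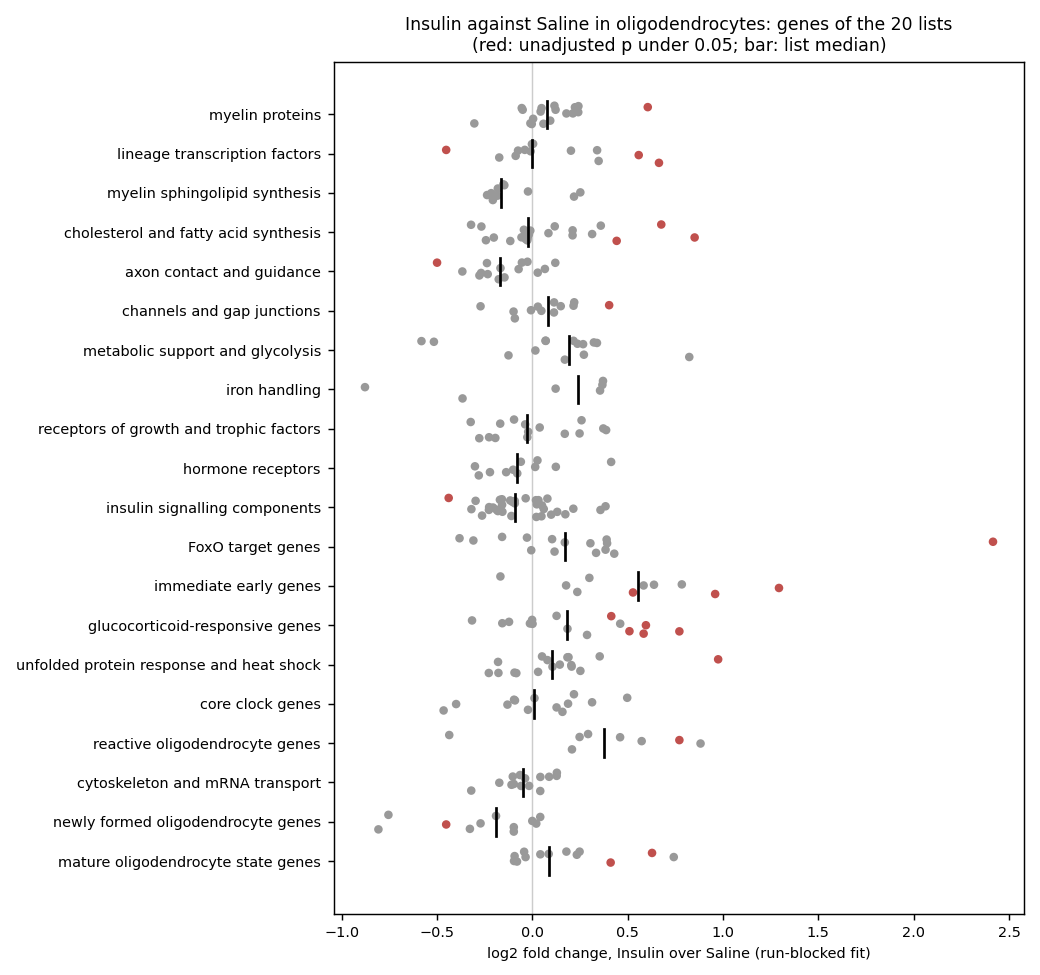
Log2 fold change of Insulin over Saline in oligodendrocytes from the run-blocked fit, 1 point per tested gene of each list, red at an unadjusted p under 0.05, with the list median as a bar. The medians run from -0.19 for newly formed genes to 0.56 for immediate early genes, and no point passed the adjusted threshold.

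Oligodendrocyte numbers were compared as shares. The share of nuclei that were oligodendrocytes was 9.52% (795 of 8352, exact 95% interval 8.90 to 10.2%) and 6.54% (641 of 9796, 6.06 to 7.05%) in the Insulin libraries, against 7.73% (732 of 9473, 7.20 to 8.28%) and 8.46% (753 of 8902, 7.89 to 9.06%) in the Saline libraries. The intervals cover counting error only. The Insulin libraries lay on both sides of the Saline libraries, with means of 8.03% and 8.09% (exact permutation test, two-sided p = 1). The share of thinned nuclei with at least 2 of Bmp4, Gpr17, Enpp6 and Neu4 was 0.254% and 0% in the Insulin libraries, against 0% and 0.134% in the Saline libraries, from 3 nuclei in all (exact permutation test, two-sided p = 1).

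Whether the insulin effect in oligodendrocytes differed from that in neurons was tested by the interaction of cell type and treatment, and 6 of 19671 genes (0.0305%) passed an adjusted p of 0.05. Sh2b2, an adaptor of the activated insulin receptor (GRCm38 chr5:136218147-136246556, minus strand), was at 100.2 and 75.9 CPM in oligodendrocytes of the Insulin libraries, against 51.03 and 58.7 CPM in those of the Saline libraries. In neurons it was at 20.7 and 21.1 CPM in Insulin, against 23.4 and 22.7 CPM in Saline. The difference of the effects was 0.81 on the log2 scale (SE 0.18, edgeR adjusted p = 0.0343). Within oligodendrocytes alone Sh2b2 did not pass (log2 0.68, SE 0.20, edgeR adjusted p = 0.993). Polr3e (chr7:120917744-120947432, plus strand) differed by 0.64 (SE 0.14, edgeR adjusted p = 0.0343), with 40.5 and 44.0 CPM in neurons of the Insulin libraries, against 34.7 and 44.8 CPM in neurons of the Saline libraries. A330015K06Rik, a noncoding transcript opposite Kcnab1, differed by 0.62 (SE 0.14, edgeR adjusted p = 0.0343) through its neuronal values, 123 and 92.6 CPM in Insulin, against 194 and 131 CPM in Saline.

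The other 3 had the lower effect in oligodendrocytes. Pard3b, a cell polarity gene (chr1:61638824-62642284, plus strand), was at 17.6 and 69.3 CPM in oligodendrocytes of the Insulin libraries, against 35.7 and 90.4 CPM in those of the Saline libraries, and at 52.6 and 70.7 CPM, against 66.0 and 33.2 CPM, in neurons (log2 -1.23, SE 0.19, edgeR adjusted p = 2.74e-06). The neuronal values moved in opposite directions in the 2 runs. Gm32036, a predicted gene, differed by -0.62 (SE 0.14, edgeR adjusted p = 0.0386), a call lost with DESeq2 size factors (edgeR adjusted p = 0.0738). Prr5l differed by -0.87 (SE 0.19, edgeR adjusted p = 0.0311). In oligodendrocytes it was at 2111 and 2025 CPM in Insulin, against 2641 and 1930 CPM in Saline (log2 -0.13, SE 0.16), in opposite directions in the 2 runs. In neurons it was at only 1.72 and 7.45 CPM in Insulin, against 1.79 and 2.94 CPM in Saline. The difference for Prr5l thus lay mainly in low neuronal values of run 232. Without the run term only Pard3b still passed (adjusted p = 0.0186). Against the mean of the other 7 types, 0 of 15676 genes (0%) passed, 483 had an unadjusted p under 0.05, and 3 of the 6 genes had the opposite sign, Sh2b2 (-0.72), Prr5l (0.61) and Gm32036 (1.00), each at an edgeR adjusted p of 1.

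**Figure D5:**
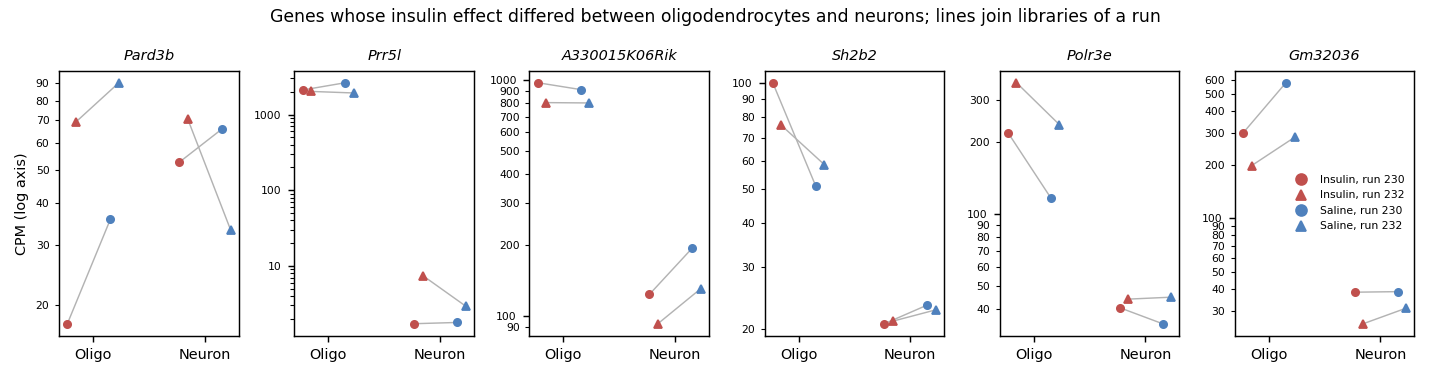
CPM on a log axis of the 6 genes whose insulin effect differed between cell types, in oligodendrocytes (left of each panel) and neurons (right), Insulin before Saline, with lines joining the libraries of a run. Sh2b2 and Polr3e are higher in Insulin in both runs in oligodendrocytes, at 75.9 to 100.2 and 219 to 355 CPM, and nearly level in neurons.

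More genes differed between runs than between treatments. In the same fit 270 of 11476 genes (2.35%) differed between runs, 157 higher in run 232 and 113 higher in run 230. Rps29, a ribosomal protein gene, was at 144 and 148 CPM in the Insulin and Saline libraries of run 232, against 8.08 and 7.37 CPM in those of run 230, and 33 of 74 tested ribosomal protein genes were higher in run 232 and 0 lower. Xist was at 1519 and 1524 CPM in run 232, against 0.475 and 0 CPM in run 230, so run and sex of the mice cannot be told apart.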

How the data were processed

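Raw UMI counts per gene and nucleus were deposited by the authors. The submitters' processing notes name Cell Ranger and the build GRCm38; versions and annotation are not given in the sources used here. The authors' deposited table gave cell type, library, run and treatment. Of 36534 annotated nuclei, 36523 had a barcode in the matrix (41156 barcodes, 31053 genes, at least 500 UMIs each). Members and gene lists were chosen with earlier results of these data known. Libraries are named by treatment and run, since the deposited names carry no replicate number. Oligodendrocyte UMIs summed to 2104820 and 1515792 in the Insulin libraries (runs 230 and 232) and 1763725 and 2079070 in the Saline libraries, with medians of 2183.5 to 2522 UMIs per nucleus. 318 barcode sequences occurred in 2 libraries, and 10 oligodendrocyte nuclei shared one within their run.

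Sums per library were tested with edgeR 4.0.16 in R 4.3.3 (TMM, filterByExpr with minimum count 10 and total 15, quasi-likelihood, Benjamini-Hochberg over all genes tested, threshold 0.05), with the run as block and 1 residual degree of freedom. The block rests on the deposited run column: same-run libraries deviated together from their group means (Pearson 0.471 over 11476 genes, 0.421 without 6 sex-linked genes). SE is the log2 difference divided by the root of F. Interactions had library, type and type by run terms. Named genes were the 10 higher and 10 lower with the smallest p, the same sign in both runs and at least 40 UMIs, without predicted and sex-linked genes, plus list members at an unadjusted p under 0.05; for levels, the highest list members, the 20 genes with the largest ratio to the next type (at 50 CPM or more in oligodendrocytes) and the 10 with the smallest ratio to the mean of the other types (at 50 CPM or more in that mean). Differences within a run used TMM-scaled log2 CPM with a prior count of 0.5. Alternatives used DESeq2 1.42.0 and limma 3.58.1. The fits were tested on simulated data. Some genes of the lists are not reported here. Positions are from GENCODE M21 (GRCm38), where 383 of 384 listed genes matched.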

Additional observations from a re-analysis of the deposited data

Results flagged for a closer look

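The insulin effect differed between oligodendrocytes and neurons by a test of the difference itself (edgeR quasi-likelihood, adjusted p under 0.05) for 6 genes, with log2 differences of -1.23 for Pard3b, -0.87 for Prr5l, 0.62 for A330015K06Rik, 0.81 for Sh2b2, 0.64 for Polr3e and -0.62 for Gm32036. Only Pard3b passed with and without the run term, and its neuronal values moved in opposite directions in the 2 runs. The call of Gm32036 was lost with DESeq2 size factors (edgeR adjusted p = 0.0738). Against the mean of the other 7 types 0 genes passed, and Sh2b2, Prr5l and Gm32036 had the opposite sign. Pard3b shares its span with antisense genes, Prr5l with Gm13905 and A330015K06Rik with Kcnab1 on the opposite strand, and whether the counting used strand is not given in the sources used here.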

How the results depend on the processing

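The run block was in the main fits. Without the block 0 oligodendrocyte genes were called for Insulin against Saline, with 110 at an unadjusted p under 0.05, and 1 gene instead of 6 for the difference from neurons. Calls for Insulin against Saline numbered 9 with no filter on low counts, 7 without nuclei whose other-type markers exceeded their own, and 4 to 336 when 1 library was left out without a block. The difference in oligodendrocyte share ran from -1.55 to 1.43 points when 1 library was left out, that in the immediate early sum from -12.0 to 125.9 CPM, and that in newly formed nuclei from -0.0668 to 0.187 points, or -0.480 points when 1 gene sufficed. For single genes, log2 differences changed sign when 1 library was left out for Mrgpra6 (-2.13 to 0.24), Insr (-0.45 to 0.15), Mobp (-0.14 to 0.12), Mog (-0.0405 to 0.15), Mag (-0.00294 to 0.0940), Jun (-0.0639 to 1.26), Mt1 (-0.0126 to 1.11), Ptgds (-0.21 to 1.08) and Pard3b (-1.82 to 0.18). Leaving out 1 library sets 1 run against both runs without a block, so a difference between runs enters all these values. In CPM, Mrgpra6, Insr and Pard3b were lower in Insulin within both runs. Mobp, Mog, Mag and Ptgds went opposite ways in the 2 runs. Of the other alternatives over 56 genes, 503 values kept their direction and side of the threshold, 3 gained a call and 6 lost one. The causes were not tested. With 2 libraries a group and the run confounded with sex, depth limits genes with few UMIs most.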
